A study of Mus musculus with 8 samples.

Results

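The genes described here are Cyp11b2, Hsd3b6, Agtr1a, Agtr1b, Dab2 and Vsnl1, all known as genes of the zona glomerulosa, the outer layer of the adrenal cortex that produces aldosterone. They were chosen by symbol, 6 of the 18846 genes in the deposited tables, and deposited counts were summed per symbol in each of 8 libraries. The libraries come from mouse adrenal glands, 1 gland from 1 animal per library, of strain 129SVEV. Wild-type animals were compared with Siah1a-/- animals, labelled as homozygous mutants of the gene for SIAH1A, a RING-type E3 ubiquitin ligase. Animals of each genotype were either untreated or had received 100 ug/kg of adrenocorticotropic hormone (ACTH) into the peritoneum 1 hour before the glands were taken, which gives 4 groups of 2 libraries, 1 labelled male and 1 labelled female in each. No vehicle injection is named in the labels, so ACTH and the handling that went with it cannot be told apart. The sources used here give neither the structure of the Siah1a allele nor the age of the animals. The labels name no litter or batch, and p-values measure the spread between these animals.

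As background, cells of the zona glomerulosa make aldosterone from cholesterol when angiotensin II or potassium calls for it, and ACTH also drives the process. Angiotensin II acts on them through AT1 receptors, which are encoded in mice by a pair of genes, Agtr1a and Agtr1b. The last steps of aldosterone synthesis need aldosterone synthase, the product of Cyp11b2, which humans and mice express in this zone, while the closely related Cyp11b1 makes corticosterone in the zona fasciculata beneath it. Hsd3b6 encodes a 3-beta-hydroxysteroid dehydrogenase that in the mouse adrenal marks the glomerulosa, whereas Hsd3b1 serves the whole cortex. Dab2 encodes a clathrin adaptor of endocytosis, and Vsnl1 encodes visinin-like protein 1, a neuronal calcium sensor; both are used as glomerulosa markers.

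Cyp11b2 lies on mouse chromosome 15 at 74850618 to 74856231 on the minus strand (RefSeq, GRCm38, the build named mm10 in the submitters' processing notes), 8974 bases from Cyp11b1 at 74834892 to 74841643, with 0 protein-coding genes between them. The coding sequences of these genes share 2 long identical stretches, which are shown because a read of 75 bases that falls wholly within one of them fits both genes. The longer is 244 bases, runs over the junction of exons 1 and 2 of the Cyp11b2 transcript and spans chr15:74855562-74856206, intron included. The other is 125 bases, crosses from exon 6 to exon 7 and spans chr15:74851758-74852114. Both are written 5′ to 3′ along the transcript from the GENCODE transcript sequences of GRCm38, on the minus strand of the genome, with no capitals because every base is shared.
Cyp11b2 and Cyp11b1 shared run, exons 1 and 2: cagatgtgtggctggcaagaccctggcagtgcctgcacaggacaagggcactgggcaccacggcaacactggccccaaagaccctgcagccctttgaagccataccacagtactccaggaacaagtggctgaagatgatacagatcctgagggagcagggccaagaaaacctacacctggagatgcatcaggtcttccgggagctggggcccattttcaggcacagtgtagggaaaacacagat
Cyp11b2 and Cyp11b1 shared run, exons 6 and 7: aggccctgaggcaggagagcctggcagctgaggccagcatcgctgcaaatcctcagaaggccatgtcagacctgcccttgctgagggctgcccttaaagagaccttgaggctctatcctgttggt
Of the 1551 windows of 75 bases in the Cyp11b2 transcript, 221 (14.2%) were found exactly in Cyp11b1, and 23.0% matched it with at most 2 mismatches. The labels and headers do not say how a read that fits more than 1 gene was assigned, so the level of Cyp11b2 is uncertain by whatever Cyp11b1 reads it could hold or lose. The same search found 7.93% of Hsd3b6 windows exactly in Hsd3b2 or Hsd3b3 and 0 in Hsd3b1. No window of Agtr1a, Agtr1b, Dab2 or Vsnl1 was found exactly in another gene.

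Hsd3b6 lies on chromosome 3 at 98805504 to 98814443 (minus strand), 27912 bases from Hsd3b1 with 0 protein-coding genes between. Agtr1a is on chromosome 13 at 30336356 to 30382867 (plus strand) and Agtr1b on chromosome 3 at 20314473 to 20367177 (minus strand), so the receptor genes are on different chromosomes. Dab2 is on chromosome 15 at 6299788 to 6440715 (plus strand) and Vsnl1 on chromosome 12 at 11325257 to 11436578 (minus strand). Promoter windows of 300 bases (250 before to 50 after the start site, RefSeq, GRCm38.p6) matched 4 of the 6 genes by symbol: Hsd3b6, Agtr1b, Dab2 and Vsnl1. They were searched on both strands for the cyclic AMP response element TGACGTCA and its shorter form TGACG, the NBRE AAAGGTCA bound by NR4A receptors, the SF-1 site CAAGGTCA, the shorter AGGTCA that both of these contain, and the TATA box TATAAA. The only match was a TATAAA in Agtr1b, whose first base is 31 bases before the start site; 13.6% of all 32851 promoter windows hold one. The response element is held by 1.79% of all windows, its shorter form by 20.8%, the NBRE by 1.51%, the SF-1 site by 1.56% and AGGTCA by 16.3%. The 250 bases before the Agtr1b start site, chr3:20367178-20367427 on the minus strand, are shown because the Agtr1b to Agtr1a ratio is compared between treatments below; capitals mark the TATAAA.
Agtr1b promoter: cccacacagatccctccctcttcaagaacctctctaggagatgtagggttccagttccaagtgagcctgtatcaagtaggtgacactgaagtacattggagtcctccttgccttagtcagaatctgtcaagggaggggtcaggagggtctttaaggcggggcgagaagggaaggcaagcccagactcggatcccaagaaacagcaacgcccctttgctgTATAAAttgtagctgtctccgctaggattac

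Each library held 8020112 to 29568945 estimated counts, and levels below are CPM, counts relative to library size, scaled between libraries by TMM factors. Tests are edgeR's quasi-likelihood test over the 15361 genes that passed a filter on low counts, all 6 glomerulosa genes among them, and a gene is called where the Benjamini-Hochberg adjusted p over all of them is under 0.05. Siah1a itself (chromosome 8) was at 26.3 and 26.1 CPM in the untreated and 33.1 and 32.4 CPM in the ACTH-given wild-type libraries (male, then female), against 25.2 and 21.2 CPM and 19.0 and 17.4 CPM in the Siah1a-/- libraries. The genotypes did not overlap, but the difference of -0.52 on the log2 scale (SE 0.23) was not called (edgeR adjusted p = 0.383). Counts assigned to Siah1a were thus present in all Siah1a-/- libraries, at 0.699 times the wild-type level, and with the allele unknown this does not check the label. Siah1a was not searched for windows shared with other genes, so these counts may include reads that fit another gene. The library labelled wild-type untreated male did not match its sex label: Xist was at 388 CPM, Ddx3y at 3.06 CPM and Kdm5d, Uty and Eif2s3y at 0, while the other 3 libraries labelled male had Xist at 4.05 to 31.8 CPM. The same library held kidney transcripts, with 7 kidney markers summing to 1839 CPM where the other 7 libraries had 0 to 8.29 CPM, and in the wild-type ACTH female library 5 liver markers summed to 60399 CPM against 120 to 650.1 CPM elsewhere. The genotype differences are also given with these 2 wild-type libraries left out. Traces of the other sex were also present in the ACTH-treated wild-type pair. Its female library had Ddx3y at 13.3 and Eif2s3y at 7.07 CPM, against at most 3.52 and 0.0766 CPM in the others labelled female. Its male library had Xist at 31.8 CPM, against 4.05 and 5.98 CPM in the Siah1a-/- males. The source of these reads was not tested. Cortical and glomerulosa transcripts were present in every gland: Cyp11b1 ranged from 2261 to 6183 CPM and Cyp11b2 from 11.3 to 78.2 CPM.

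Per transcript length, the 6 genes were not equally abundant. Over the 8 libraries the median RPKM (reads per kilobase of transcript relative to library size, as deposited) was 119 for Dab2, 75.1 for Agtr1a, 57.8 for Hsd3b6, 11.4 for Vsnl1, 9.08 for Cyp11b2 and 7.61 for Agtr1b. The ranges over libraries overlapped between neighbours in this order: Agtr1a went from 34.9 to 158 RPKM and Hsd3b6 from 14.5 to 120.2 RPKM, and Vsnl1, Cyp11b2 and Agtr1b went from 0.818 to 26.2, 5.96 to 39.7 and 1.91 to 20.6 RPKM. Cyp11b1 was at a median of 1440 RPKM, 158.5 times that of Cyp11b2, and Hsd3b1 at 6065 RPKM, so the whole-gland RNA held far less of the glomerulosa enzymes than of their partners in the wider cortex.

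**Figure D1:**
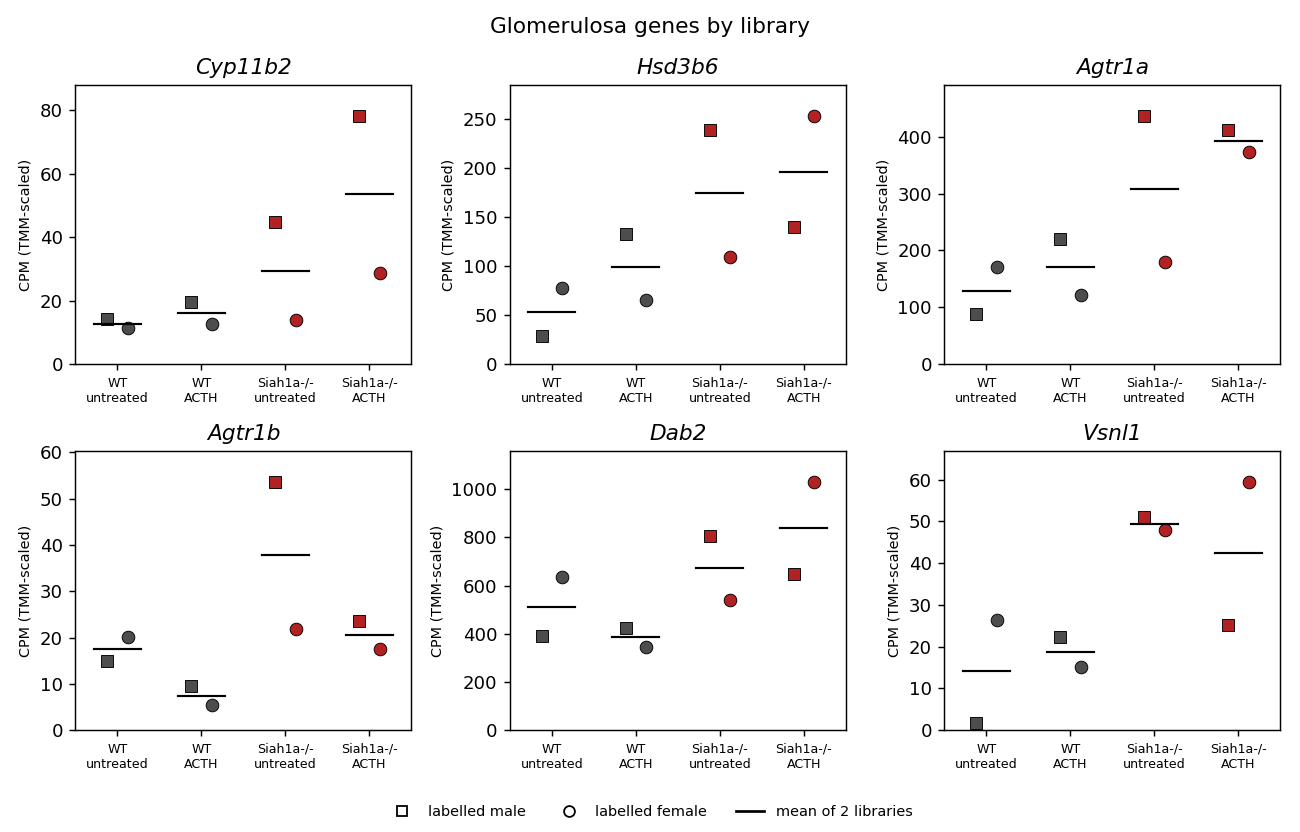
Level of each of the 6 glomerulosa genes (TMM-scaled CPM, linear axis from 0) in each of the 8 libraries by genotype and treatment; squares are libraries labelled male, circles those labelled female, and bars the mean of 2 libraries. Cyp11b2 stayed between 11.3 and 19.6 CPM in wild type and spread from 13.9 to 78.2 CPM in Siah1a-/-.

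The first question is whether the glomerulosa genes differed between genotypes. All 6 had a higher mean in Siah1a-/- than in wild type, by 0.76 to 1.54 on the log2 scale averaged over both treatments. By edgeR none of the 6 was called at an adjusted p under 0.05, against 4 of 15361 genes (0.026%). In this test none of the differences thus passed the adjustment over all tested genes. At an unadjusted p under 0.05 there were 6 of 6, beside 2065 genes (13.4%) in all. The median difference of the 6 was 1.26 and that of all tested genes was -0.044. DESeq2's Wald test on the same counts called 5 of the 6, all but Vsnl1, and 932 genes in all (6.19%), while limma-voom called 0 of the 6 and 108 genes in all (0.703%). In bulk tissue a larger glomerulosa and more RNA per glomerulosa cell cannot be told apart. Some genes of the wider cortex were higher too, though not called by edgeR: Cyp11b1 by 0.79, Hsd3b1 by 0.58 and Cyp21a1 by 0.74. Star and Nr5a1 differed by 0.099 and 0.068. The part of the cortical share of each sample in the differences was not tested.

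Aldosterone synthase had the lowest edgeR p of the 6, while by DESeq2 that of Agtr1a was lower. In wild type Cyp11b2 was at 14.2 and 11.3 CPM in the untreated male and female and at 19.6 and 12.6 CPM in the male and female given ACTH. In Siah1a-/- it was at 44.6 and 13.9 CPM without treatment and at 78.2 and 28.9 CPM after ACTH. The wild-type libraries lay close together (14.4 ± 3.63 CPM, SD, n = 4), and 3 of the 4 Siah1a-/- libraries were above all of them (41.4 ± 27.5 CPM, SD, n = 4); the untreated female fell within the wild-type range. The fitted difference was 1.29 (SE 0.30; edgeR adjusted p = 0.155), 2.44-fold, and DESeq2 gave 1.29 with an adjusted p of 0.00698. In the 4 pairs matched for treatment and sex label the Siah1a-/- animal was higher in 4, by 1.23 to 3.99 times; 10.8% of all tested genes were higher in all 4 pairs.

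Hsd3b6, the glomerulosa isoenzyme of the step that makes progesterone, varied widely within each genotype. Wild-type values were 29.2 and 78.3 CPM untreated (male, female) and 133 and 65.4 CPM after ACTH. Siah1a-/- values were 239 and 109.5 CPM untreated and 139.7 and 253 CPM after ACTH. One wild-type library, the ACTH male, was above the lowest Siah1a-/- library, so the genotypes overlapped. The mean was 76.5 ± 43.2 CPM over the wild-type glands and 185 ± 71.6 CPM over the others (SD, n = 4 each), a difference of 1.33 (SE 0.44; edgeR adjusted p = 0.254; DESeq2 adjusted p = 0.0132). Pair ratios ran from 1.05, in the ACTH-treated males, to 8.20, in the untreated males. The wild-type library of the untreated male pair is the one that held kidney transcripts and did not match its sex label. That pair also gave the highest ratios of Agtr1a, Agtr1b and Vsnl1 below.

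Agtr1a, the main AT1 receptor gene of the mouse adrenal and many other tissues, followed a similar order. It was at 88.7 and 170.2 CPM in untreated wild type (male, female), at 219.8 and 122 CPM in ACTH-treated wild type, at 436 and 180.1 CPM in untreated Siah1a-/- and at 411 and 373 CPM in ACTH-treated Siah1a-/-. The untreated Siah1a-/- female lay inside the wild-type range and the other 3 Siah1a-/- libraries above it. The difference was 1.18 (SE 0.33; edgeR adjusted p = 0.200; DESeq2 adjusted p = 0.00248), from 150.2 ± 57.2 to 350.0 ± 116 CPM (SD, n = 4 each), and pair ratios were 1.06 to 4.92. Smooth muscle cells also use Agtr1a: the sum of 4 smooth muscle markers was 65.4 to 138 CPM in wild type and 117 to 418 CPM in Siah1a-/-, with 418 CPM in the untreated male, the library with the highest Agtr1a. The 4 markers did not go together in that library. Tagln was at 321 CPM (38.2 to 77.0 CPM in wild type) and Acta2 at 86.5 CPM (18.1 to 42.3 CPM). Myh11, at 11.1 CPM, lay within its wild-type range of 3.41 to 18.0 CPM, and Cnn1 was at 0. The part of smooth muscle cells in the Agtr1a difference was not tested.

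Agtr1b, the other AT1 receptor gene, is known in mice for its expression in the adrenal and pituitary. It was at 14.9 and 20.1 CPM in untreated wild type (male, female) and at 9.55 and 5.35 CPM in ACTH-treated wild type. In Siah1a-/- it was at 53.6 and 21.9 CPM untreated and at 23.6 and 17.6 CPM after ACTH. The Siah1a-/- animal was higher in 4 of 4 pairs, by 1.09 to 3.59 times, though the genotypes overlapped because the wild-type untreated female exceeded the Siah1a-/- ACTH female. The difference was 1.23 (SE 0.34; edgeR adjusted p = 0.198; DESeq2 adjusted p = 0.0253), from 12.5 ± 6.43 to 29.2 ± 16.5 CPM (SD, n = 4 each).

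Dab2 differed least. It was at 392 and 634 CPM in untreated wild type (male, female), at 426 and 346 CPM in ACTH-treated wild type, at 808 and 538 CPM in untreated Siah1a-/- and at 649 and 1030.4 CPM in ACTH-treated Siah1a-/-. The Siah1a-/- animal was higher in 3 of 4 pairs; in the untreated females it was 0.849 times the wild-type level. The difference was 0.76 (SE 0.27; edgeR adjusted p = 0.277; DESeq2 adjusted p = 0.0358), from 449.6 ± 127 to 756 ± 214 CPM (SD, n = 4 each). Dab2 was the only one of the 6 with several transcripts in the tables, and their shares set the wild-type untreated male library apart. There NM_001102400 took 33.0% of the Dab2 estimated counts (95% Wilson interval 31.4 to 34.6%) against 6.33 to 12.7% in the other 7 libraries. NM_001037905 took 25.5% against 6.28 to 13.9%. The counts of each Dab2 transcript were whole in 0 of 8 libraries, so they are estimates. The interval treats them, rounded, as read counts and leaves out the error of dividing reads among transcripts. NM_023118, with 32.0 to 55.7% in the other 7, took 15.9% there. Kidney tubules express Dab2 as the adaptor of megalin and cubilin; the genes for these receptors, Lrp2 and Cubn, were at 368 and 40.9 CPM in that library and at no more than 2.15 and 1.42 CPM in the others. The part of kidney RNA in the Dab2 level was not tested beyond leaving the library out.

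**Figure D2:**
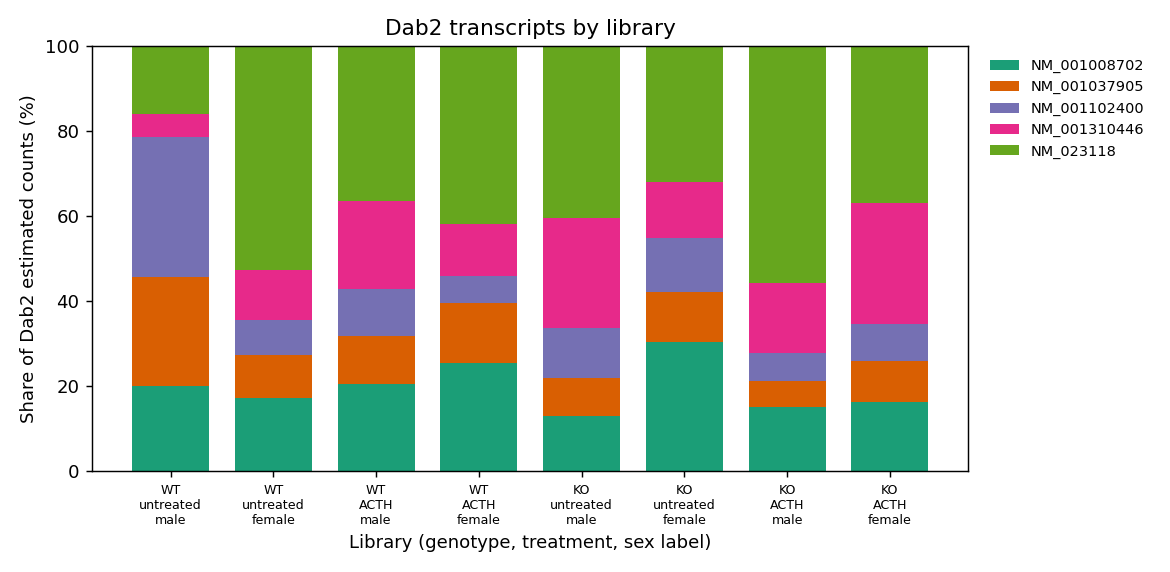
Share (%) of the Dab2 estimated counts held by each of 5 RefSeq transcripts in each of the 8 libraries (stacked bars, 0 to 100%). The wild-type untreated male has 33.0% NM_001102400 against 6.33 to 12.7% in the other 7 libraries.

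Vsnl1 had the largest error, and a difference whose place among the 6 depended on the kidney-bearing library. In wild type it was at 1.76 and 26.5 CPM untreated (male, female) and at 22.3 and 15.1 CPM after ACTH; in Siah1a-/- it was at 51.0 and 48.0 CPM untreated and at 25.3 and 59.5 CPM after ACTH. The lowest value rests on 15 counts (95% Poisson interval 0.987 to 2.91 CPM, counting error only), and the library it comes from is the one with kidney transcripts. The ACTH-treated Siah1a-/- male lay within the wild-type range. The mean was 16.4 ± 10.8 CPM in wild type and 45.9 ± 14.6 CPM in Siah1a-/- (SD, n = 4 each), a difference of 1.54 (SE 0.66; edgeR adjusted p = 0.366), and pair ratios ran from 1.14 to 28.9. Without the kidney-bearing library the difference was 1.08, below the 1.18 of Cyp11b2. Neurons express Vsnl1 too, and 5 neuron markers summed to 28.6 to 55.0 CPM in wild type and 46.1 to 433 CPM in Siah1a-/-; the library at 433 CPM, the ACTH-treated male, had the lowest Vsnl1 of its genotype. The part of neurons in the difference was not tested.

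Across the 6 genes, 0 had all 4 Siah1a-/- libraries above all 4 wild-type libraries, while 4.21% of all tested genes did. The Siah1a-/- animal was higher in 4 of 4 pairs for 5 genes and in 3 of 4 for Dab2. Of all tested genes, 10.8% were higher in all 4 pairs, and the share for 3 of 4 was not computed. With the kidney-bearing and the liver-bearing wild-type library left out, the 6 differences were smaller: 1.19 for Cyp11b2, 0.86 for Hsd3b6, 0.80 for Agtr1a, 0.93 for Agtr1b, 0.53 for Dab2 and 0.89 for Vsnl1 (edgeR adjusted p 0.475 to 0.753). For the marker lists of other cell types, chromaffin cells of the medulla summed to 1997 to 3991 CPM in wild type and 1800.2 to 7369 CPM in Siah1a-/- (5 of 5 markers present in all libraries), and the capsule to 168 to 189 CPM and 81.7 to 201 CPM, with Gli1, Wt1 or Tcf21 at 0 in some libraries. The X-zone, the inner transient layer of the mouse cortex, summed over 2 markers to 3390 to 9824 CPM in wild type and 134 to 7323 CPM in Siah1a-/-. Macrophage markers summed to 125 to 191 CPM and 113 to 192 CPM, and adipocyte markers to 1525 to 3840 CPM and 2059 to 4508 CPM. Their part in the genotype differences was not tested.

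The genes with general cortical roles give a scale for these values. Cyp11b1 had a genotype difference of 0.79 (SE 0.25; edgeR adjusted p = 0.241) and Hsd3b1 of 0.58 (SE 0.20; edgeR adjusted p = 0.274), neither called by edgeR and both by DESeq2. Within a library, where depth and scaling cancel, there were 2.69 to 6.41 Cyp11b2 counts per 1000 Cyp11b1 counts in wild type and 2.70 to 12.6 in Siah1a-/-. The mean log2 ratio differed by 0.46 between genotypes (exact 2-sided permutation test, p = 0.343) and by 0.80 between treatments (exact permutation p = 0.171). Hsd3b6 stood at 4.05 to 15.1 counts per 1000 Hsd3b1 counts in wild type and at up to 22.8 in Siah1a-/-, a difference of 0.79 (exact permutation p = 0.2), and differed by 0.86 between treatments (exact permutation p = 0.171). These ratios overlapped between the genotypes. The test leaves out the matching for treatment and sex label: in matched pairs the Cyp11b2 to Cyp11b1 ratio was higher in Siah1a-/- in 4 of 4, though by 2.70 against 2.69 in the untreated females, and the Hsd3b6 to Hsd3b1 ratio in 3 of 4. Set against Cyp11b1 in the same way, 0.846% of all genes were higher in 4 of 4 pairs.

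Split by treatment, the genotype differences had the same sign in untreated and in ACTH-treated animals for all 6 with all libraries in the fit. In untreated animals they were 0.97 for Cyp11b2, 1.70 for Hsd3b6, 1.13 for Agtr1a, 0.95 for Agtr1b, 0.42 for Dab2 and 2.25 for Vsnl1, and by edgeR 0 of the 6 were called (0 of all genes, 0%; 1 of the 6 at an unadjusted p under 0.05; DESeq2 and limma-voom called 0 of the 6). After ACTH they were 1.60 for Cyp11b2 (SE 0.42; edgeR adjusted p = 0.478), 0.98 for Hsd3b6, 1.24 for Agtr1a, 1.50 for Agtr1b, 1.10 for Dab2 and 0.91 for Vsnl1, again with 0 of 6 called by edgeR (0.00651% of all genes; 4 of the 6 at an unadjusted p under 0.05). DESeq2 called Cyp11b2 there (1.61, adjusted p = 0.0343; 3.22% of all genes) and limma-voom called 0 of the 6. Of all genes, 4.84% in untreated animals and 8.23% after ACTH had an unadjusted edgeR p under 0.05. After ACTH both Siah1a-/- libraries were above both wild-type libraries for 6 of the 6, and for 19.3% of all genes.

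The values within a treatment rest on single libraries. Without the kidney-bearing wild-type library the untreated differences were 0.52 for Cyp11b2, 0.86 for Hsd3b6, 0.36 for Agtr1a, 0.35 for Agtr1b, 0.035 for Dab2 and 0.99 for Vsnl1. Without the other untreated wild-type library, the female, they were 1.45, 2.74, 2.06, 1.64, 0.81 and 4.72 in the same gene order. Leaving out the untreated Siah1a-/- male gave 0.50, 0.89, 0.48, 0.42, -0.083 and 1.58, and leaving out the untreated Siah1a-/- female gave 1.39, 2.45, 1.74, 1.44, 0.86 and 3.07. With the kidney-bearing and the liver-bearing library both left out they were 0.35, 1.06, 0.39, 0.35, 0.11 and 1.22 in untreated animals and 2.05, 0.64, 1.21, 1.53, 0.95 and 0.55 after ACTH. With any 1 library left out, the differences after ACTH ranged from 1.29 to 1.85 for Cyp11b2, from 0.30 to 1.75 for Hsd3b6, from 0.90 to 1.60 for Agtr1a, from 1.30 to 1.71 for Agtr1b, from 0.71 to 1.43 for Dab2 and from 0.036 to 2.13 for Vsnl1. The lowest Hsd3b6, Agtr1a, Agtr1b and Vsnl1 values came without the wild-type ACTH female, the highest of these 4 without the wild-type ACTH male.

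**Figure D3:**
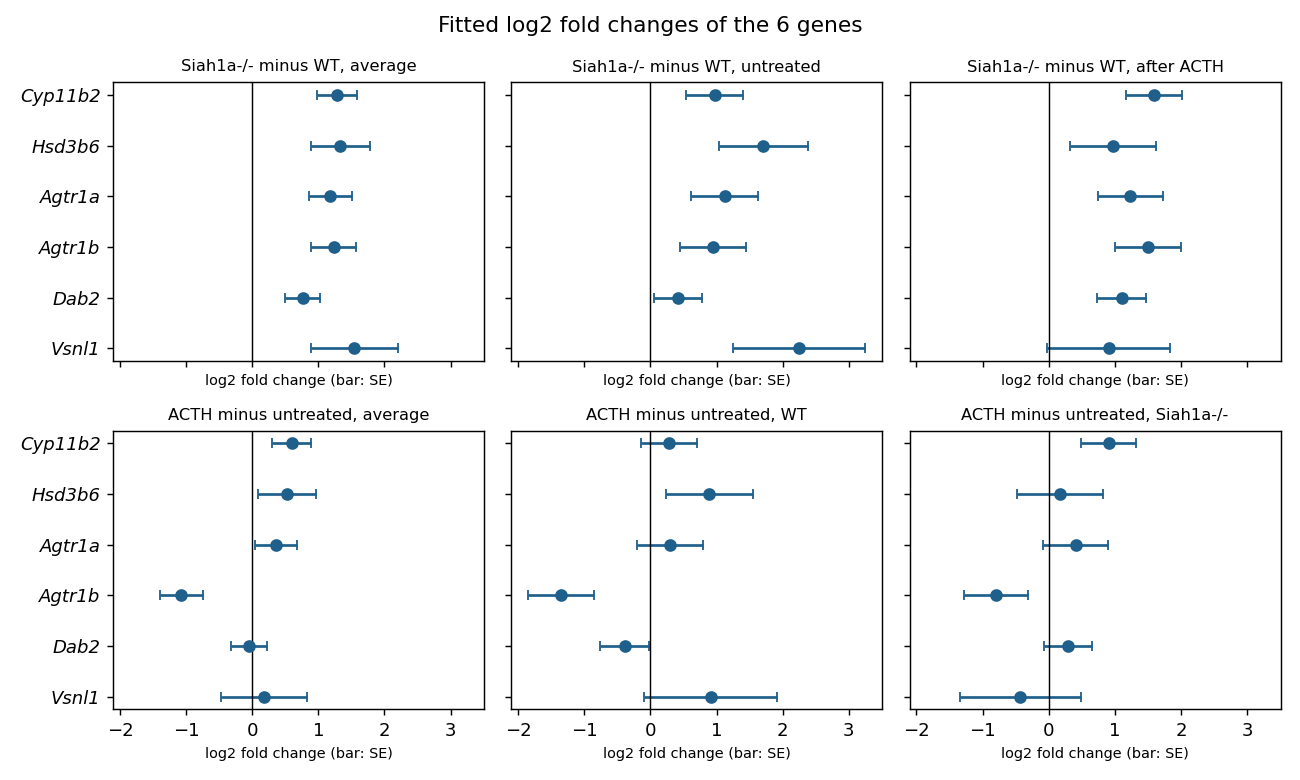
Fitted log2 fold changes (points) with standard errors (bars) of the 6 genes from edgeR, for Siah1a-/- minus wild type (top) and ACTH minus untreated (bottom), each as an average and within groups. The genotype averages lie between 0.76 and 1.54, and Agtr1b lies below 0 in all 3 ACTH panels.

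The next question is what 1 hour of ACTH did to the same genes. Averaged over genotypes, Cyp11b2 was 0.60 higher (SE 0.29; edgeR adjusted p = 0.821) and Agtr1b 1.07 lower in log2 terms (-1.07, SE 0.33; edgeR adjusted p = 0.719). The differences were 0.52 for Hsd3b6, 0.36 for Agtr1a, -0.049 for Dab2 and 0.18 for Vsnl1. By edgeR 0 of the 6 were called, beside 3 of all genes (0.0195%). At an unadjusted p under 0.05 there was 1 of the 6, Agtr1b, beside 6.11% of all genes. DESeq2 and limma-voom called 0 of the 6. Cyp11b2 was higher after ACTH in 4 of 4 pairs matched for genotype and sex label, by 1.12 to 2.08 times (8.14% of all genes were), and Agtr1b was lower in 4 of 4, at 0.266 to 0.806 times the untreated level (7.27% of all genes were). The other 4 genes went both ways, with 2 of 4 pairs higher.

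The AT1 receptor genes were also compared within each library, where scaling cancels. For every 1000 Agtr1a counts there were 168 and 118 Agtr1b counts in untreated wild type (male, female) and 123 and 121 in untreated Siah1a-/-, but 43.5 and 43.7 in ACTH-treated wild type and 57.5 and 47.3 in ACTH-treated Siah1a-/-. All 4 untreated libraries were above all 4 ACTH libraries, and the spread within a treatment was small beside the gap. The mean log2 ratio was 1.46 lower after ACTH (-1.46, 2.75-fold; exact 2-sided permutation p = 0.0286, the smallest that 4 against 4 allows, and 0.171 after Benjamini-Hochberg adjustment over the 6 ratio tests), and it differed by 0.024 between genotypes (exact permutation p = 0.943). Of all other tested genes set against Agtr1a in the same way, 25 of 15360 (0.163%) had all 4 ACTH libraries below all 4 untreated ones, Agtr1b among them. The ratio does not say which of the genes differed, and neither was called for ACTH by any of the 3 tools.

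**Figure D4:**
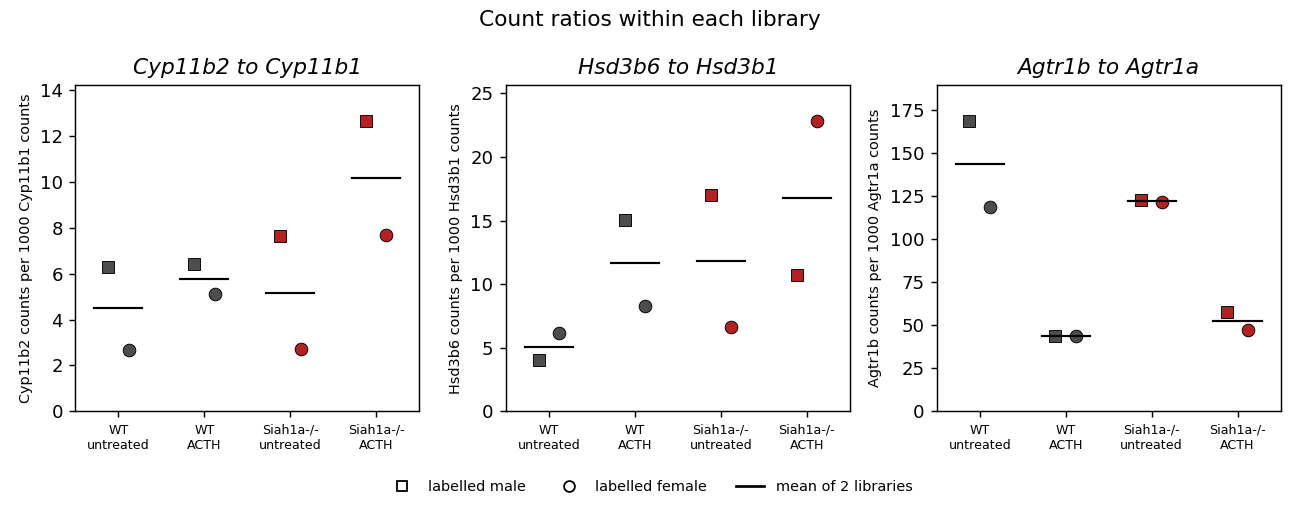
Counts of Cyp11b2 per 1000 Cyp11b1, of Hsd3b6 per 1000 Hsd3b1 and of Agtr1b per 1000 Agtr1a within each of the 8 libraries (linear axes from 0; squares labelled male, circles labelled female, bars the mean of 2 libraries). Agtr1b per 1000 Agtr1a was 118 or more in the 4 untreated libraries and 57.5 or less in the 4 ACTH libraries.

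Within wild type the ACTH differences were 0.28 for Cyp11b2, 0.89 for Hsd3b6, 0.30 for Agtr1a, -1.35 for Agtr1b, -0.39 for Dab2 and 0.91 for Vsnl1, with 0 of 6 called by edgeR (0% of all genes). Within Siah1a-/- they were 0.91, 0.17, 0.41, -0.80, 0.29 and -0.43 in the same gene order, again with 0 of 6 called (0% of all genes). Unadjusted, 1 of the 6 (Agtr1b) in wild type and 0 in Siah1a-/- had p under 0.05, beside 2.56% and 4.22% of all genes. Neither DESeq2 nor limma-voom called any of the 6 in either genotype. These comparisons share their untreated or treated libraries with the genotype comparisons. The test of the difference itself, the genotype by ACTH interaction, gave 0.63 for Cyp11b2 (SE 0.59; edgeR adjusted p = 1), -0.72 for Hsd3b6, 0.11 for Agtr1a, 0.56 for Agtr1b, 0.68 for Dab2 and -1.34 for Vsnl1, with 0 of 6 called by edgeR (0% of all genes), 0 at an unadjusted p under 0.05, and 0 of the 6 by DESeq2 or limma-voom. Of all genes, 1.84% had an unadjusted edgeR p under 0.05 for the interaction. A different response to ACTH in Siah1a-/- was thus not detectable for the 6 genes with 2 animals a group.

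A comparison by sex label was added after the values were seen. Cyp11b2 was higher in the library labelled male in 4 of 4 pairs matched for genotype and treatment, with means of 39.2 ± 29.2 CPM in those labelled male and 16.7 ± 8.20 CPM in those labelled female (SD, n = 4 each); 4.67% of all genes were higher in all 4. The difference, female minus male, was -1.01 (SE 0.30; edgeR adjusted p = 1). By edgeR 0 of the 6 were called (0.026% of all genes), and 1 of the 6 had an unadjusted p under 0.05 (3.11% of all genes). DESeq2 and limma-voom called 0 of the 6. One library labelled male carried female transcripts, as given above, so the pair of untreated wild-type libraries is not a comparison of the sexes. The ACTH-treated wild-type pair also held some transcripts of the other sex. By transcripts the sexes are thus not balanced between the genotypes, and the part of sex in the genotype differences was not tested. With no sex term the genotype difference of Cyp11b2 was 1.47 (SE 0.44).

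All 15 pairs of the 6 genes were positively correlated, to different degrees. Over the 8 libraries the Pearson correlation of log2 CPM with Cyp11b2 was 0.85 for Agtr1a, 0.63 for Hsd3b6, 0.55 for Dab2, 0.54 for Agtr1b and 0.34 for Vsnl1. The libraries span both genotypes and both treatments. Differences between these groups were not removed, so they are part of every correlation given here. The closest pair was Hsd3b6 and Agtr1a (r = 0.93), followed by Hsd3b6 and Vsnl1 (r = 0.89). Among 12344 genes with a mean log2 CPM of at least 1, the 5 most like Cyp11b2 were Ubfd1 (r = 0.98), Wdr92 (0.98), Pfkp (0.98), Slc25a24 (0.97) and Sv2a (0.97), and Agtr1a ranked at 178. Wdr92, for one, went from 593 CPM in the wild-type untreated female, where Cyp11b2 was lowest, to 2957 CPM in the Siah1a-/- ACTH male, where it was highest. With 8 libraries and so many genes these values describe the libraries and carry no test.

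The wider pathway was read from 4 lists, of which edgeR called 0 genes in either direction in the genotype average. At an unadjusted p under 0.05 there were 4 of 23 angiotensin genes, 3 of 8 shared steroidogenic genes, 1 of 9 ion channels and pumps and 2 of 9 identity genes, against 13.4% of all genes. DESeq2 called 1, 3, 0 and 1 in the same order against 6.19% of all genes, all higher in Siah1a-/-: Gnaq, then Cyp11b1, Fdx1 and Hsd3b1, then Nr4a1. Of these limma-voom called Fdx1, the ferredoxin that feeds electrons to mitochondrial steroid enzymes, and Nr4a1. Of 23 genes of the angiotensin system and its receptor signalling, 5 were above 0 and 18 below, with a median of -0.23. Ren1, which encodes renin, the enzyme that starts the angiotensin cascade, was at 539.5 CPM in the Siah1a-/- ACTH male and at 76.5 to 151 CPM in the other 7 libraries, and its genotype difference was 0.78 (SE 0.52; edgeR adjusted p = 0.576). Plcb1, a phospholipase C that acts behind AT1 receptors, differed by -0.23 and Itpr1, an inositol trisphosphate receptor of calcium stores, by -0.35 (edgeR adjusted p = 0.766 and 0.268). Mice of 129 strains carry an additional renin gene that the reference strain lacks, and whether its reads count towards Ren1 was not tested.

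Of 8 genes of the steroidogenic steps that aldosterone shares with corticosterone, 6 were above 0 and 2 below (median 0.34). Star, which carries cholesterol into mitochondria, differed by 0.099 (SE 0.22) and Cyp21a1, the steroid 21-hydroxylase, by 0.74 (SE 0.32; edgeR adjusted p = 0.376). Of 9 ion channels and pumps that set glomerulosa membrane potential and calcium entry, 4 were above 0 and 5 below (median -0.12). The potassium channel gene Kcnk3 was at 0.094 (SE 0.18) and Atp1b1 at -0.12 (SE 0.77). Atp1b1 was uneven in wild type, at 243 ± 369 CPM against 131 ± 26.1 CPM in Siah1a-/- (SD, n = 4 each). Over both genotypes it was at 272 ± 352 CPM untreated and 101 ± 45.0 CPM after ACTH (SD, n = 4 each). Its genotype difference was -1.33 in untreated animals and 0.93 after ACTH (edgeR adjusted p = 0.892 and 0.840). The untreated wild-type group holds the kidney-bearing library, and the part of that library in the Atp1b1 values was not tested. Of 9 genes of glomerulosa identity and of WNT or Hedgehog signals, 8 were above 0 and 1 below (median 0.41). Nr4a1, an orphan nuclear receptor that ACTH and angiotensin II induce, had 475 ± 170.1 CPM in wild type and 1445 ± 523 CPM in Siah1a-/- (SD, n = 4 each), a difference of 1.56 (SE 0.28; edgeR adjusted p = 0.102). Ctnnb1, which encodes beta-catenin, and Nr5a1, which encodes SF-1, differed by 0.10 and 0.068. In the ACTH average the medians of the 4 lists were -0.067, -0.062, -0.014 and 0.082 in the order given, again with 0 genes called by edgeR. At an unadjusted p under 0.05 there were 1, 1, 0 and 3 genes, beside 6.11% of all genes. DESeq2 called 1, Nr4a2, and limma-voom 0.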

How the data were processed

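RNA from 8 mouse adrenal glands was sequenced as single reads of 75 bases from a directional library kit, per the labels' protocols. Per the submitters' processing notes the tools were FastQC 0.11, TopHat2 2.0.13, Bowtie2 2.2.5.0 and Partek 6.6 with build mm10. The sources used here do not say how strand or reads that fit several genes were treated. For each of 28678 RefSeq transcripts the authors deposited, per the file headers, a column of estimated counts and a column of RPKM values; 46.6% of the count values were not whole. The estimated counts were summed per symbol to 18846 genes and rounded. Counts of the 5 genes with 1 transcript were whole in all 8 libraries (tolerance 1e-06). RPKM was used only to order levels between genes.

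Samples were grouped by the labels. Genes with low counts were removed with edgeR's filterByExpr (minimum count 10), which left 15361 and removed 3485, and libraries were scaled by TMM (factors 0.888 to 1.065). All tests were fitted on the whole table with edgeR 4.0.16 (R 4.3.3) on all 8 libraries: genotype, treatment and sex label for the averages (4 residual degrees of freedom), with a genotype by treatment term for the rest (3). The sex labels were used as given, also for the library that did not match its label. No fit with sex read from transcripts was run. Benjamini-Hochberg adjustment ran over all tested genes. The F statistic gave the standard errors. Ratios were compared by exact permutation over libraries (scipy 1.17.1), all 70 assignments. Alternatives were RLE size factors, no filter, DESeq2 1.42.0, limma-voom (limma 3.58.1), other models and leaving out libraries. The genotype-average fit was also run on simulated counts, with the same dispersion for all genes and no library with other tissue. That setting differs from these data, so it does not show power or error for the 6 genes. The text names the 6 genes, Cyp11b1, Hsd3b1, Siah1a, from each list the 3 genes with the highest mean CPM (1 of them is not reported here) and any called, and the 5 genes most correlated with Cyp11b2 (log2 CPM, prior count 2). Genes used as markers of other tissues or of sex, the list genes that another tool called, and Wdr92 as an example, were named after their values were seen. The genes and lists were chosen with earlier results of these data known. RefSeq positions were found for 95.7% of symbols, including all 6 genes.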

Additional observations from a re-analysis of the deposited data

Results flagged for a closer look

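The following 2 values stood apart within a group of 4 libraries by Dixon's gap test, in which the gap to the nearest library is divided by the range of the group. Cyp11b2 in the untreated Siah1a-/- male, at 44.6 CPM, was far above the other 3 untreated libraries (11.3 to 14.2 CPM; gap over range 0.913). Agtr1b in the same library, at 53.6 CPM, was far above the other 3 Siah1a-/- libraries (17.6 to 23.6 CPM; gap over range 0.833). Both exceed the 95% critical value for 4 libraries. In all, 24 groups were tested and 2 passed, and chance alone passes about 1 group in 20.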

How the results depend on the processing

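DESeq2 called 5 of the 6 genes in the genotype average and 1 after ACTH where edgeR called 0; every other alternative run, and every library left out, called 0 of the 6 in every comparison. All 90 genotype-average values of the 6 genes under the alternatives kept their sign. Over all genes the genotype average gave 4 calls by edgeR, 932 by DESeq2, 108 by limma-voom, 41 with no filter and 0 to 190 with 1 library left out (190 without the wild-type untreated female), so the background share depends on the tool and on single libraries. The corresponding counts (edgeR, DESeq2, limma-voom, highest with a library left out) were 3, 123, 3 and 19 for ACTH, 0, 111, 0 and 95 for genotype in untreated animals, 1, 485, 13 and 173 after ACTH, 0, 37, 3 and 70 for ACTH in wild type, 0, 98, 0 and 0 in Siah1a-/-, 0, 8, 0 and 11 for the interaction, and 4, 21, 0 and 19 for sex label.

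Signs that turned were all of differences that were not called, and the cause was not tested. For ACTH on average, Vsnl1 was -0.14 by limma-voom, and without the 2 wild-type libraries with kidney or liver transcripts Dab2 was 0.074 and Vsnl1 -0.16; without the same libraries, ACTH in wild type gave -0.77 for Cyp11b2 and -0.34 for Agtr1a. The Agtr1a interaction was -0.055 with no sex term, and Hsd3b6 by sex label was 0.021 in the model with the interaction. With 1 library left out at a time, log2 values ranged as follows. ACTH on average gave -0.28 to 0.21 for Dab2 and -0.38 to 0.84 for Vsnl1. ACTH in wild type gave -0.12 to 0.81 for Cyp11b2, -0.43 to 1.27 for Agtr1a, -0.76 to 0.019 for Dab2 and -0.39 to 3.33 for Vsnl1. ACTH in Siah1a-/- gave -0.55 to 1.02 for Hsd3b6, -0.14 to 1.11 for Agtr1a, -0.15 to 0.79 for Dab2 and -1.09 to 0.40 for Vsnl1. The interaction gave -1.62 to 0.27 for Hsd3b6, -0.78 to 0.92 for Agtr1a, -0.12 to 1.17 for Agtr1b and -3.59 to 0.13 for Vsnl1. Genotype in untreated animals gave -0.083 to 0.86 for Dab2, and sex label gave -0.42 to 0.43 for Hsd3b6 and -0.098 to 0.39 for Dab2. The Agtr1b to Agtr1a log2 ratio by genotype ranged from -0.26 to 0.39, and by treatment from -1.55 to -1.34 (exact permutation p = 0.0571, the smallest 7 libraries allow). Where a group is left with 1 library, that library is assumed to vary like the others.

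Depth limits Vsnl1 most, with 15 counts in 1 library. With 2 animals a group and 3 or 4 residual degrees of freedom, edgeR called none of the differences seen here within a treatment.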
